A study of Mus musculus with 12 samples.

Results

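Mouse hypothalamic cells sorted as positive for an mCherry reporter, described by the submitters as marking Hcrt cells, were compared with the mCherry-negative cells of the same sort. This comparison covers 6 of the 12 RNA-seq libraries of the study, 3 positive and 3 negative, chosen by the sorting label alone. Both groups came from C57BL/6 hypothalami dissected at embryonic day 18, dissociated and exposed to an AAV (adeno-associated virus) at a multiplicity of infection of 10. The cells grew for a week as neurospheres, floating clusters in low-adherence wells, with bFGF (basic fibroblast growth factor) at 10 ng/ml from 24 h on, and were then dissociated and sorted. Total RNA of 0.8 ng per sample was amplified with SMART-Seq v4 in 11 PCR cycles, and 150 pg of cDNA entered a Nextera XT library. The other 6 libraries, EGFP-positive and EGFP-negative cells (3 each), came from a separate sort for MCH (melanin-concentrating hormone) cells. They had the same strain, age and culture, but a lentivirus carried the reporter and 2 ng of RNA was used. They appear here only where the difference between both sorts was tested. The promoter that drives mCherry, the share of infected cells and whether animals were pooled are not given in the sources used here.

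Hcrt encodes the precursor of the hypocretin (orexin) peptides, which neurons of the lateral hypothalamus release to sustain wakefulness and feeding. Cells that form neurospheres in bFGF are mostly dividing progenitors of the radial glia type, which can give rise to neurons, astrocytes and oligodendrocytes. As such cells mature or stop dividing, they lose transcripts of DNA replication and mitosis. In the embryonic forebrain and hypothalamus, Dlx factors mark progenitors of GABAergic neurons, while tanycytes and ependymal cells line the ventricle and derive from radial glia.

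Hcrt itself was close to the detection limit in both groups. Its reads numbered 4, 3 and 14 in mCherry-positive replicates 1, 2 and 3 and 1, 5 and 5 in the mCherry-negative replicates. In CPM (counts per megareads in genes, here without further scaling) this was 0.163, 0.0949 and 0.426 against 0.0329, 0.153 and 0.230. The groups overlapped, and only mCherry-positive replicate 3 lay above all negative libraries. The ratio of summed read rates was 1.82 (95% exact binomial interval 0.837 to 4.17), and the two-sided exact permutation test gave p = 0.6, where 3 against 3 samples cannot go below 0.1. Without mCherry-positive replicate 3 the ratio was 0.960 (0.316 to 2.71). At this depth Hcrt neither separated the groups nor identified the positive cells as Hcrt neurons, so they are named below by their sort. The mCherry transcript was not analysed here.

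Of 14 genes listed as markers of Hcrt neurons, 10 passed the filter on low counts, and 1 of them was called higher. Among all 17369 genes tested, 0.541% were called higher. An unadjusted edgeR p under 0.05 was reached by 9 of the 10 markers, and by 3233 of all genes. Plagl1, an imprinted zinc-finger factor, rose: its level, in CPM scaled by TMM factors as all levels from here on, was 30.7, 30.5 and 45.3 against 14.3, 13.6 and 6.84 CPM. Plagl1 thus had a log2 fold change of 1.61 ± 0.32 (SE) and an edgeR adjusted p of 0.0497. No positive library overlapped a negative one for Plagl1, but its call was lost with the replicate number as a block (edgeR adjusted p 0.0501) and without any 1 of the 6 libraries (0.0529 to 0.2). The median log2 fold change of the 10 markers was 1.64, against 0.02 over all 17369 genes tested. It was positive in 9 of the markers and negative in 1 (-0.95), which lay below all negative libraries. In the EGFP sort the list median was 0.06. Pdyn, the dynorphin precursor that Hcrt neurons also make, was picked after its values were seen: it stood at 18.1, 13.2 and 19.3 against 4.26, 7.78 and 3.93 CPM, with log2 fold change 1.66, edgeR adjusted p 0.0598, short of the threshold. The summed level of the 14 listed markers was 584, 1034 and 1345 CPM in positive and 491, 546 and 418 CPM in negative libraries, so replicate 1 was the closest of the positive libraries to the negative ones. The median of the 10 tested markers per library, relative to the 6-library mean on the log2 scale, was -0.18, 0.64 and 1.10 in positive replicates 1, 2 and 3. Pituitary genes followed the same order, at -1.18, 1.03 and 2.01, as did epithelial genes, at -0.57, 0.87 and 1.47, and their part in the rise of the markers was not tested.

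Reads in genes numbered 24.5 to 32.9 M (megareads) in positive and 21.7 to 32.6 M in negative libraries. A count of 0 allows a level of up to 0.0912 to 0.138 CPM, and intervals and limits cover counting error only, since the PCR reads carry no molecular identifiers. The first principal component of log CPM (38.8% of the variance) placed positive libraries at -60.4, -34.3 and -47.8 and negative libraries at 11.5, 22.3 and 108.6. Negative replicate 3 thus stood apart on this axis. Its log CPM correlated with the other 5 libraries at 0.901 to 0.941. The lowest of these values was with positive replicate 1, whose other correlations were 0.936 to 0.944. The mitochondrial share of gene reads was 1.06% to 1.54% in positive and 0.805% to 0.953% in negative libraries. Whether the replicates were grown as separate cultures is not in the labels, so the p-values rest on the spread between these libraries only, which may be technical.

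Of 17369 genes tested with edgeR's quasi-likelihood test and Benjamini-Hochberg adjustment, 94 (0.541%) were called higher and 114 (0.656%) called lower in mCherry-positive cells at an adjusted p under 0.05. At an unadjusted p under 0.05 there were 3233. The falls were mostly moderate, with a median log2 fold change of -1.34 and only 1 of 114 beyond 4-fold. The rises spread more widely, with a median of 1.83 and 39 of 94 beyond 4-fold. All 3 positive libraries lay above all 3 negative ones in 2078 genes (12%) and below them in 2376 (13.7%). The number of edgeR calls depended on which library was left out. Without positive replicate 1 there were 125 higher and 87 lower genes, and 119 of the 208 called genes were among them. Without negative replicate 1, negative replicate 2 or positive replicate 3 the edgeR count was 0. The number of genes at an unadjusted p under 0.05 was then 3673, 2764 and 2439, and DESeq2 called 1766, 1083 and 824 and limma-voom 0. edgeR called 16 without positive replicate 2 and 29 without negative replicate 3. All 208 called genes kept their sign in these fits.

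**Figure D1:**
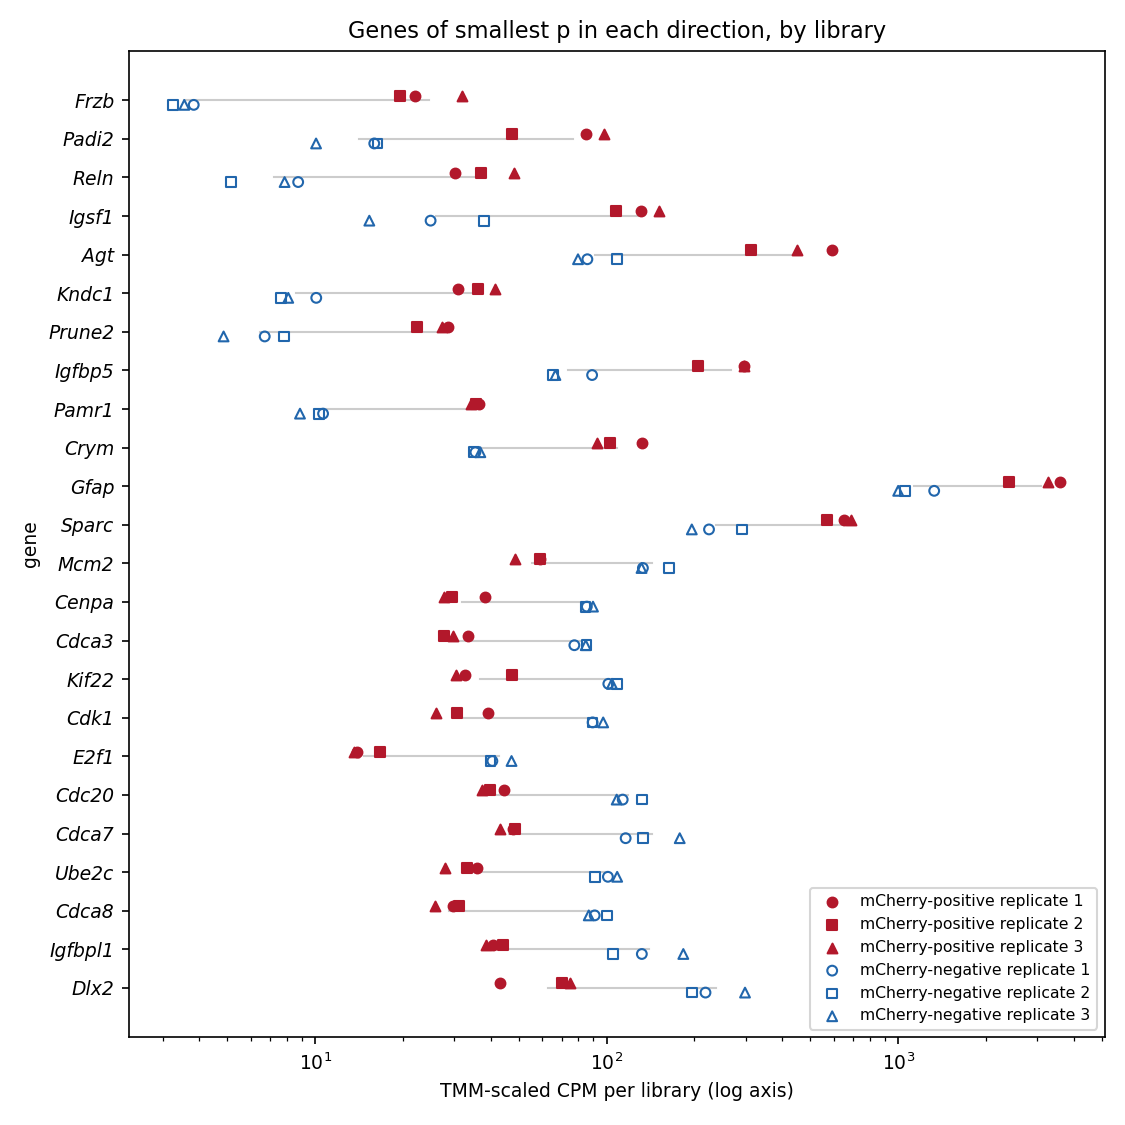
Level of the 12 rises and 12 falls of smallest p in each mCherry library, in TMM-scaled CPM on a log axis; filled red symbols are mCherry-positive and open blue symbols mCherry-negative libraries, shapes give the replicate number, and grey lines join the group means. In all 24 genes the groups do not overlap, as the rule for naming them requires.

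Cell division transcripts were reduced in mCherry-positive cells. The genes were ordered in 4 lists by role: DNA replication, the kinetochore, mitotic kinases and checkpoint, and spindle and cytokinesis. Of the 168 genes of these lists 57 were called lower and 0 higher, so they hold 57 of the 114 falls, beside the background of 0.656% lower among all genes. Of the 168, 165 had a negative log2 fold change and 144 lay below all negative libraries without overlap, where 13.7% of all genes did. Their median log2 fold change was -1.15. Leaving out libraries moved it only between -1.25 and -1.02, although the number called lower then ranged from 0 to 56. In bulk samples, fewer dividing cells and less RNA per dividing cell cannot be told apart.

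DNA replication genes fell in 19 of 50 cases, with a median log2 fold change of -1.08. Mcm2, a subunit of the replicative helicase, stood at 59.2, 59.2 and 48.4 against 133, 164 and 132 CPM. Mcm2 thus had a log2 fold change of -1.36 ± 0.18 (SE) and an edgeR adjusted p of 0.0227. The highest positive library thus lay far below the lowest negative one for this gene. E2f1, a transcription factor that switches on S phase genes, stood at 13.9, 16.7 and 13.6 against 40.5, 39.9 and 47.2 CPM, with a log2 fold change of -1.53 ± 0.21 (SE). The helicase subunits Mcm5 (-1.41) and Mcm7 (-1.10) also fell, as did Tyms, thymidylate synthase (-1.27), and Tk1, thymidine kinase (-1.50). The summed level of the list was 1289 to 1738 CPM in positive and 2984 to 3274 CPM in negative libraries.

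Kinetochore and centromere genes fell in 9 of 37 cases, and all 37 log2 fold changes were negative, from -1.85 to -0.04. Cenpa, the histone H3 variant that marks centromeres, stood at 38.4, 29.5 and 27.7 against 85.5, 84.6 and 89.7 CPM. Cenpa thus had a log2 fold change of -1.44 ± 0.19 (SE) and an edgeR adjusted p of 0.0227. The values within each group lay close together, with no overlap. Spc24 and Ndc80 belong to the Ndc80 complex, which holds microtubules at the kinetochore, and fell by 1.85 and 1.70 on the log2 scale. Nsl1 and Pmf1, subunits of the Mis12 complex, fell by 1.61 and 1.43, and Cenpe, a motor protein of the kinetochore, by 1.34.

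Mitotic kinases, cyclins and checkpoint genes fell in 17 of 37 cases, and the list median of -1.22 was the lowest of the 31 lists. Cdca8 encodes borealin, a subunit of the chromosomal passenger complex with Aurora B. It stood at 29.6, 31.2 and 25.8 against 90.95, 100.2 and 86.8 CPM. Cdca8 thus had a log2 fold change of -1.68 ± 0.18 (SE) and an edgeR adjusted p of 0.0181, and positive cells thus held 3.21 times less. Cdk1, the kinase that drives entry into mitosis, stood at 39.3, 30.8 and 26.05 against 89.5, 89.5 and 97.3 CPM, with a log2 fold change of -1.52 ± 0.20 (SE). Cdc20 and Ube2c serve the anaphase-promoting complex, which ends mitosis. Cdc20 stood at 44.5, 39.8 and 37.3 against 113, 132 and 108 CPM, with a log2 fold change of -1.54 ± 0.18 (SE), and Ube2c at 35.8, 33.1 and 27.8 against 101, 91.2 and 109 CPM, with a log2 fold change of -1.64 ± 0.19 (SE). Of the exonic bases of Ube2c, 22.8% overlap exons of Tnnc2 on the opposite strand, and with the strand setting of the counting not given, reads there could belong to either. The kinases Plk1 (-1.69) and Ttk (-1.72), the second a spindle checkpoint kinase, fell as well.

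Spindle, chromosome and cytokinesis genes fell in 12 of 44 cases, with a median of -1.16. Cdca3, a trigger of mitotic entry, stood at 33.3, 27.6 and 29.7 against 77.5, 85.3 and 84.8 CPM, with a log2 fold change of -1.45 ± 0.18 (SE). Kif22, a kinesin that pushes chromosome arms, stood at 32.6, 47.3 and 30.4 against 101, 108 and 104 CPM, with a log2 fold change of -1.51 ± 0.21 (SE). For both genes the highest positive library was below the lowest negative one. Falls were also called for the microtubule-binding genes Nusap1 (-1.55) and Tacc3 (-1.17), for Racgap1, a regulator of cytokinesis (-1.20), and for the condensin subunit Ncapd2 (-1.13).

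Regulators of the G1 phase were more often lower than higher, with few calls. Of 19 genes tested on the list of cell cycle inhibitors and G1 cyclins, 1 was called higher and 1 lower. The called shares over all genes were 0.541% and 0.656%. The median was -0.55 (-0.33 without negative replicate 3). Log2 fold changes were negative in 13 and positive in 6 genes, and 14 had an unadjusted edgeR p under 0.05. Without overlap, 9 lay below all negative libraries and 3 above, where 13.7% and 12% of all genes did. Cdkn2c, an inhibitor of Cdk4 and Cdk6, fell: it stood at 15.5, 15.7 and 11.97 against 38.3, 39.8 and 38.2 CPM, with a log2 fold change of -1.43 ± 0.22 (SE). Gas6, a secreted ligand of the TAM receptor kinases that is made in growth-arrested cells, rose: it stood at 163, 141 and 137 against 63.98, 76.8 and 57.5 CPM, with a log2 fold change of 1.15 ± 0.18 (SE). Cdca7, a factor of heterochromatin upkeep on none of the lists, was among the 12 falls of smallest p, at 47.6, 48.3 and 42.98 against 116, 133 and 178 CPM, with a log2 fold change of -1.62 ± 0.20 (SE).

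Many cell division genes carry known promoter elements: the CHR (TTTGAA or TTCGAA), the CCAAT box (CCAAT) and E2F sites (TTTCCCGC, TTTGGCGC, TTTCGCGC or TTTGCCGC). These letters were searched on both strands in the 150 bases before the RefSeq start (GRCm38.p6). The 2 falls of smallest p with a promoter in the table were examined from each list, and the stretches of Mcm2 (chr6:88898781-88898930, minus strand), Pmf1 (chr3:88410398-88410547, minus strand) and Ube2c (chr2:164769779-164769897, plus strand) that lie before any GENCODE exon of the gene show the layouts found. Capitals mark the motifs, the CHR in Mcm2 and Pmf1 and the reverse of the CCAAT box in Ube2c:
Mcm2: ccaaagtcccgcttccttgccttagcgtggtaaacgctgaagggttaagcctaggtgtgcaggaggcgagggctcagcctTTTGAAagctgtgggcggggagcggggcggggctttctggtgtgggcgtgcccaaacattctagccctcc
Pmf1: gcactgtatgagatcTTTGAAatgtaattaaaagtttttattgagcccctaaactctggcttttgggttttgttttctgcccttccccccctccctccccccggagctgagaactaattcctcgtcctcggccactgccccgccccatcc
Ube2c: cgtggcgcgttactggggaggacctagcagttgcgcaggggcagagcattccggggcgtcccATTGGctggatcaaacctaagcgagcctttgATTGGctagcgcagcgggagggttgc
In Ube2c a CHR follows at position -29 from the start, outside the stretch shown, and the boxes begin at -88 and -57. Cdca8 held CCAAT boxes at -85, -51 and -11, Cdca3 at -104 and -71, Cenpa at -109 and -86, and Kif22 a box at -54 and a CHR at -17. E2f1 held none of these letters in the window. All 150 window bases of E2f1 and Cdca3 lie in GENCODE exons of the gene, as do 109 in Cdca8, 109 in Cenpa and 51 in Kif22, so these windows are in whole or in part transcribed sequence. Of 50 lower cell division genes with a promoter in the table, 22% held a CHR, 60% a CCAAT box and 12% an E2F form. Of the 90 cell division genes that were not called these shares were 24.4%, 62.2% and 10%, while over 12170 tested genes they were 6.01%, 27.7% and 2.14%, and over all 27025 promoters 9.89%, 25.3% and 1.26%. The shares thus lay close together for called and uncalled cell division genes, and above those of tested genes. A match of letters is a description, not a site of binding.

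The cell division genes were also compared with the EGFP sort. In that sort the 4 lists had median log2 fold changes of -0.13, -0.13, -0.15 and -0.01 for replication, kinetochore, kinase and spindle genes. The test of the difference, the mCherry effect minus the EGFP effect in 1 edgeR fit of all 12 libraries, called 261 of 18063 genes (1.44%), and 38 of the 168 cell division genes were among them. Cdca8 differed by -1.56, and Cdk1 by -1.39. The 2 sorts share no control samples, but virus, RNA input and sort differ together and cannot be told apart from the reporter.

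**Figure D2:**
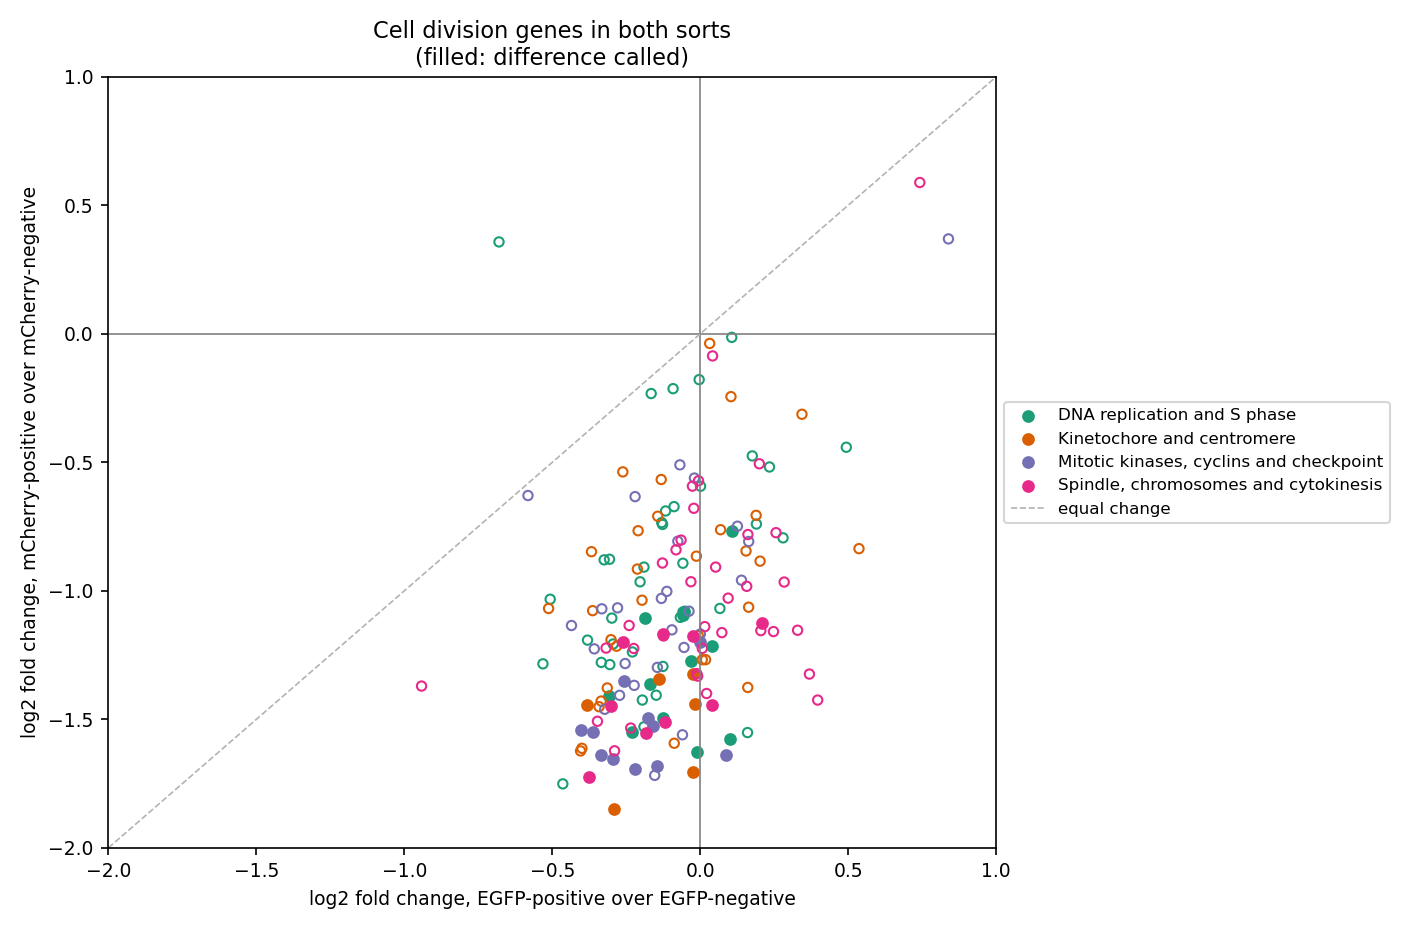
Log2 fold change of the 168 cell division genes, EGFP-positive over EGFP-negative on the horizontal and mCherry-positive over mCherry-negative on the vertical axis, coloured by list; filled points differ between the sorts by the edgeR interaction test. Most points lie below the dashed line of equal change, with mCherry values near the median of -1.15.

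GABAergic lineage factors were the second group of falls, with 10 of 24 tested genes lower, 0 higher and a median log2 fold change of -0.999. Among all genes tested, 0.656% were called lower and 0.541% higher. Dlx2, a homeobox factor at the head of the GABAergic programme, stood at 43.2, 70.2 and 75.01 against 218, 197 and 298 CPM. Dlx2 thus had a log2 fold change of -1.92 ± 0.25 (SE) and an edgeR adjusted p of 0.0227. Every positive library lay far below the lowest negative one, and the lowest of all was positive replicate 1. Sp9, a zinc-finger factor of GABAergic progenitors, stood at 23.8, 45.5 and 35.99 against 95.3, 87.1 and 149 CPM, with a log2 fold change of -1.65 ± 0.29 (SE). Meis2 (-1.11), Etv1 (-1.05) and the long noncoding RNA Dlx6os1 (-1.24), which is transcribed at the Dlx5 and Dlx6 locus, also fell. In the EGFP sort the list median was -0.32, and the difference between sorts was called for 3 of the 24, among them Dlx2 (-1.65) and Meis2 (-0.92).

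Proneural and newborn neuron genes fell in 7 of 29 cases, where 0.656% of all genes were called lower, with 0 rises. The median was -0.69 (-0.45 without positive replicate 1). Igfbpl1, an IGF-binding-like protein of newborn neurons, stood at 40.7, 44.01 and 38.6 against 132, 105 and 183 CPM. Igfbpl1 thus had a log2 fold change of -1.77 ± 0.22 (SE) and an edgeR adjusted p of 0.02100. Negative replicate 3 was the highest library for this gene, and no value overlapped. Sox11, a factor of immature neurons, fell as well (222, 185 and 159.6 against 445, 359 and 503 CPM, a log2 fold change of -1.21 ± 0.20 (SE)). Stmn1, a microtubule regulator of growing cells, stood at 223, 323 and 262 against 452, 642 and 840.1 CPM, with a log2 fold change of -1.26 ± 0.25 (SE). Its call was lost with DESeq2 size factors (edgeR adjusted p 0.0503) and without any 1 library (0.0791 to 0.189).

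In the Notch pathway the falls were of ligands and of a modifier. In this pathway a ligand on one cell activates a receptor on its neighbour and holds it as a progenitor through Hes and Hey targets. Dll3, a ligand-like inhibitor of Notch, stood at 42.2, 63.8 and 60.8 against 148, 154 and 253 CPM, with a log2 fold change of -1.73 ± 0.26 (SE). Dll1, a ligand, stood at 48.5, 51.1 and 59.5 against 105, 94.9 and 97.5 CPM, with a log2 fold change of -0.90 ± 0.17 (SE). For both, the positive libraries lay below all negative ones. Mfng, a glycosyltransferase that tunes Notch receptors, fell by 1.68. Of the exonic bases of Dll1, 20.5% overlap A930024N18Rik on the opposite strand. These are also 3 of the 7 proneural falls, so the lists are not independent. None of the other 27 Notch genes tested was called, and the median of all 30 was 0.17 (-0.01 without positive replicate 3).

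Astrocyte genes were higher in mCherry-positive cells, with 3 of 40 called higher (0.541% of all genes were) and 0 lower. Of the 40, 20 lay above all negative libraries without overlap, where 12% of all genes did. Gfap, the intermediate filament of astrocytes, stood at 3602, 2396 and 3272 against 1329, 1057 and 1000.0 CPM. Gfap thus had a log2 fold change of 1.45 ± 0.21 (SE) and an edgeR adjusted p of 0.0307. Positive replicate 2 was the lowest positive library and still exceeded the highest negative one. Agt encodes angiotensinogen, the precursor of angiotensins, which astrocytes make in the brain. It stood at 594, 314 and 450.2 against 85.8, 109 and 79.7 CPM, with a log2 fold change of 2.31 ± 0.25 (SE), 4.95 times more in positive cells. Atp13a4, a P-type transport ATPase, rose by a log2 fold change of 2.62 ± 0.40 (SE). The water channel gene Aqp4 (921, 453 and 457 against 379.8, 313 and 118 CPM) was not called (log2 fold change 1.18, edgeR adjusted p 0.179). Aldh1l1, a folate enzyme used as an astrocyte marker, had lower mean levels in positive cells (603, 578 and 464 against 689, 761 and 515 CPM), was not called (log2 fold change -0.26, edgeR adjusted p 0.526), and differed from the EGFP sort by -1.21. The list median was 0.63 here and 0.82 in the EGFP sort, where Gfap rose too (log2 fold change 1.08).

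Radial glia and tanycyte genes were called higher in 3 of 33 cases, where 0.541% of all genes were, with 0 called lower. Log2 fold changes were positive in 26 and negative in 7, with a median of 0.79 (0.56 to 1.00 with 1 library left out). The summed level of the 34 listed genes overlapped, at 9222, 7251 and 6461 CPM in positive and 7468, 7790 and 7141 CPM in negative libraries. Crym, a thyroid-hormone-binding protein typical of tanycytes, stood at 132, 102 and 92.3 against 35.5, 35.1 and 36.9 CPM. Crym thus had a log2 fold change of 1.60 ± 0.19 (SE) and an edgeR adjusted p of 0.0181. The 3 negative libraries held nearly the same level, and all positive ones lay far above it. Igfbp5, a binding protein of insulin-like growth factors, stood at 297, 205 and 297 against 89.1, 65.3 and 66.7 CPM, with a log2 fold change of 1.85 ± 0.22 (SE). Crb1, a polarity protein of the apical membrane, stood at 19.9, 21.5 and 40.2 against 5.43, 4.11 and 2.26 CPM, with a log2 fold change of 2.78 ± 0.41 (SE). None of these 3 differed between the sorts by the interaction test, which does not show that they acted alike.

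Ependymal and motile cilia genes were higher almost throughout, with positive log2 fold changes in 45 of 46 genes and a median of 1.30. Of the 46, 31 lay above all negative libraries without overlap, where 12% of all genes did. Of the 46, 3 were called higher, where 0.541% of all genes were. Drc1, part of the nexin-dynein regulatory complex of the axoneme, stood at 41.1, 38.5 and 32.5 against 16.2, 14.6 and 11.1 CPM, with a log2 fold change of 1.42 ± 0.24 (SE). Dnah1, an axonemal dynein heavy chain, stood at 13.2, 24.4 and 23.2 against 5.304, 5.503 and 4.99 CPM, with a log2 fold change of 1.94 ± 0.32 (SE). Both had all positive above all negative libraries, while Cfap65, a protein of motile cilia and flagella, was low in every library (8.203, 5.48 and 11.5 against 2.03, 1.202 and 1.11 CPM, a log2 fold change of 2.53 ± 0.47 (SE)). Foxj1, the master factor of motile cilia, stood at 33.4, 29.8 and 29.3 against 22.1, 17.3 and 16.9 CPM and was not called (log2 fold change 0.72, edgeR adjusted p 0.134). The median of the list per library relative to the 6-library mean (log2 scale) was 0.34 to 1.03 in positive and -1.19 to -0.20 in negative cells, lowest in negative replicate 3. In the EGFP sort the median of this list was 0.96, and the difference between sorts was called for 0 of 46 by edgeR.

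The rise of smallest p over all genes was Frzb, a secreted antagonist of Wnt ligands (chromosome 2, 80411970 to 80447625 on GRCm38). It stood at 22.1, 19.6 and 31.9 against 3.83, 3.26 and 3.56 CPM. Frzb thus had a log2 fold change of 2.79 ± 0.30 (SE) and an edgeR adjusted p of 0.0181, 6.91 times more in positive cells. It was the 1 gene called of 26 Wnt antagonists and targets, whose median was 0.41, and it differed from the EGFP sort by 1.79. Reln, the secreted glycoprotein that guides neuron positioning, stood at 30.3, 37.2 and 48.04 against 8.74, 5.16 and 7.85 CPM, with a log2 fold change of 2.41 ± 0.29 (SE). In the EGFP sort Reln had a log2 fold change of -0.10, and the difference of 2.48 was called.

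The other rises of smallest p were on no list. Padi2, which converts arginine to citrulline in proteins and is found in glia, stood at 84.8, 47.4 and 98.1 against 15.9, 16.4 and 10.1 CPM, with a log2 fold change of 2.44 ± 0.31 (SE). Igsf1, a membrane glycoprotein of the immunoglobulin superfamily needed for the thyroid axis, stood at 131, 108 and 151 against 24.9, 37.8 and 15.3 CPM, with a log2 fold change of 2.32 ± 0.31 (SE). Sparc, a matrix protein secreted by astrocytes and vessels, stood at 650.3, 572 and 688 against 224, 291 and 196 CPM, with a log2 fold change of 1.43 ± 0.20 (SE). No library overlapped in these genes, and Igsf1 was lowest in negative replicate 3. Kndc1, a guanine exchange factor of neurons (a log2 fold change of 2.07 ± 0.24 (SE)), Pamr1 (a log2 fold change of 1.83 ± 0.22 (SE)) and Prune2 (a log2 fold change of 2.01 ± 0.28 (SE)) rose too. The differences from the EGFP sort were called for Padi2 (1.57), Sparc (1.17), Kndc1 (1.62) and Prune2 (1.42), and not for Igsf1 or Pamr1.

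**Figure D3:**
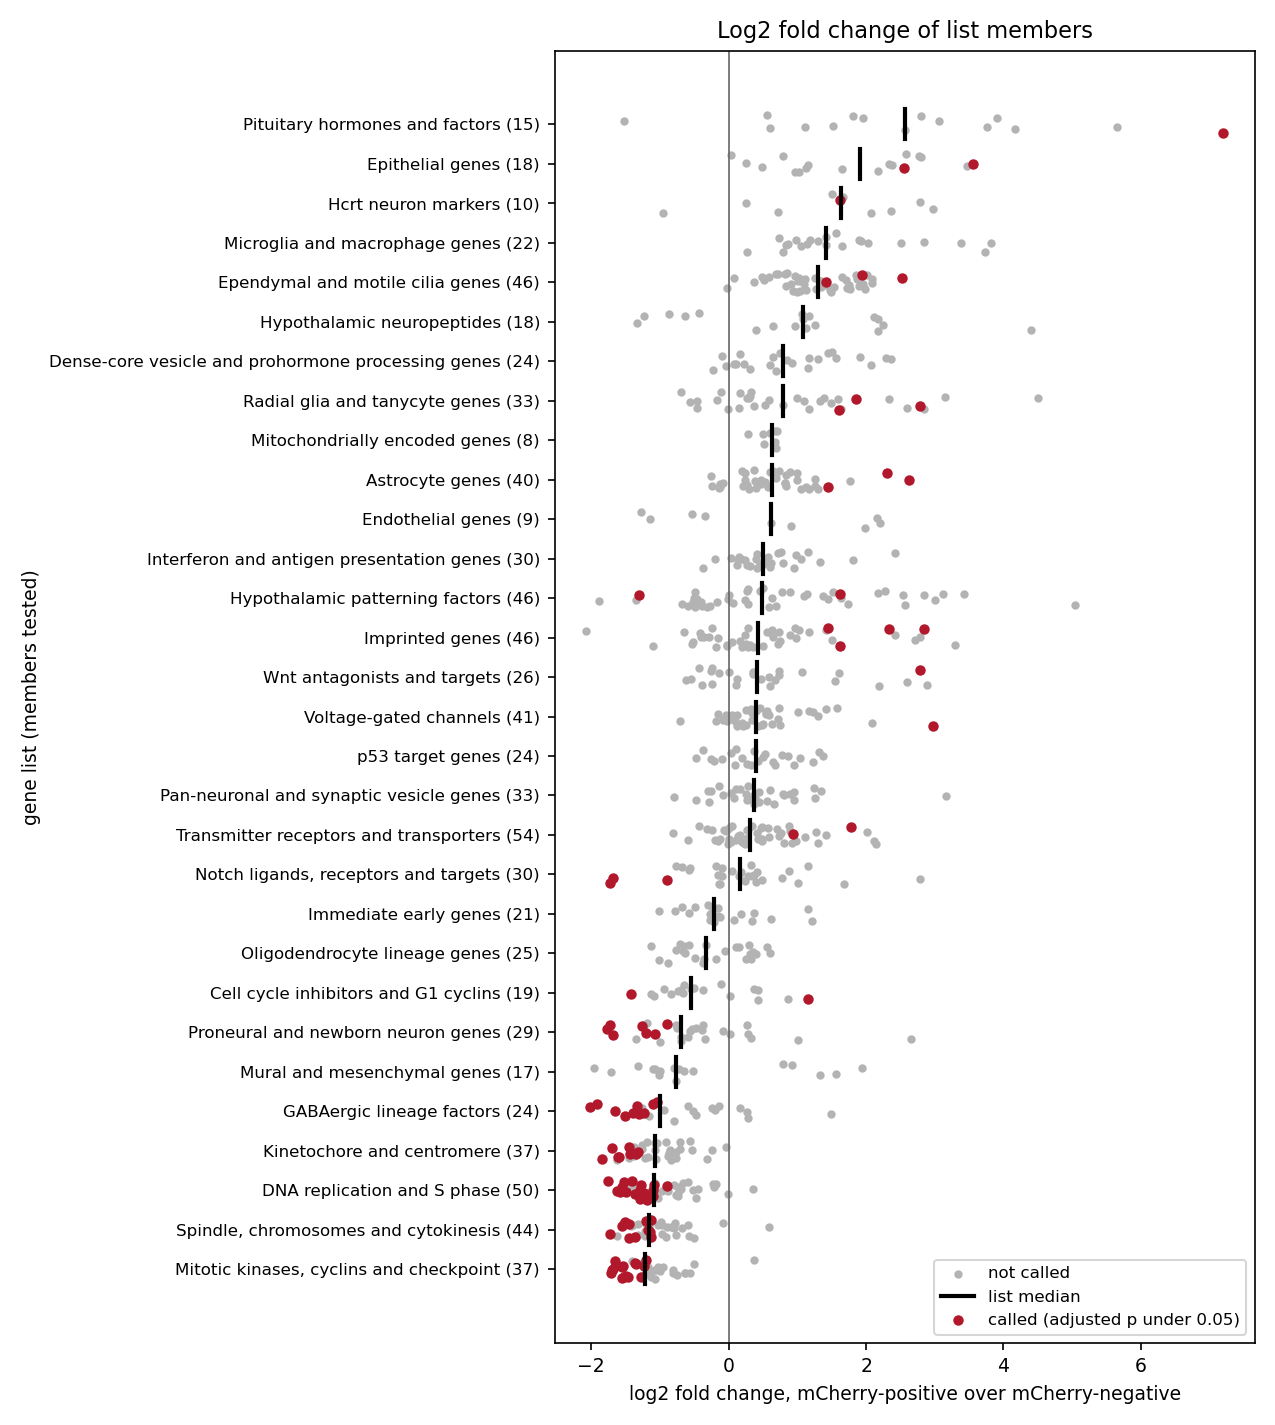
Log2 fold change, mCherry-positive over mCherry-negative, of the tested members of 30 gene lists ordered by median; the number tested stands beside each name, red points are called, grey points are not, and black bars are medians. The 4 cell division lists and the GABAergic list lie lowest, at medians of -1.22 to -0.999, and pituitary and epithelial genes lie highest, at 2.57 and 1.91.

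Imprinted genes are read from 1 parental allele and include several of hypothalamic neurons. They rose in 4 of 46 cases, where 0.541% of all genes were called higher, with 0 called lower. The median was 0.43 (0.67 without negative replicate 3). Log2 fold changes were positive in 32 and negative in 14, from -2.07 to 3.29. Without overlap, 10 lay above and 2 below all negative libraries, where 12% and 13.7% of all genes did. Zim1, a zinc-finger gene of the Peg3 domain, stood at 5.84, 7.997 and 11.5 against 1.18, 1.68 and 0.647 CPM. Zim1 thus had a log2 fold change of 2.84 ± 0.50 (SE) and an edgeR adjusted p of 0.0349. Rasgrf1, a neuronal exchange factor for Ras, stood at 17.6, 43.7 and 61.5 against 5.500, 6.93 and 12.1 CPM, with a log2 fold change of 2.33 ± 0.46 (SE). Zdbf2 stood at 31.1, 60.3 and 57.9 against 19.2, 18.98 and 16.7 CPM, with a log2 fold change of 1.45 ± 0.27 (SE). In all 3, positive replicate 1 was the lowest positive library, and still above every negative one. Plagl1, described above, was the fourth. Zim1 and Rasgrf1 differed from the EGFP sort by 3.84 and 2.70.

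Hypothalamic patterning factors, which set the regions of the hypothalamus, rose in 1 and fell in 1 of 46 cases. Their median of 0.48 was -0.23 under a stricter filter on low counts and 0.25 without positive replicate 2. Nr2f2, the nuclear receptor COUP-TFII, stood at 26.3, 24.8 and 29.2 against 7.89, 7.496 and 10.8 CPM, with a log2 fold change of 1.62 ± 0.25 (SE). Calls were absent from 3 neuronal lists, with 0 of 33 pan-neuronal, 0 of 24 dense-core vesicle and 0 of 18 neuropeptide genes by edgeR. An unadjusted p under 0.05 was reached by 6, 13 and 3 of them, and by 3233 of all 17369 genes. Over all genes 0.541% were called higher and 0.656% lower. The medians of these lists were 0.36, 0.80 and 1.08, and positive log2 fold changes numbered 26, 21 and 13. For neuropeptides the median ranged from 0.26 to 1.44 over the alternatives. Rbfox3, a marker of mature neurons, stood at 11.3, 35.1 and 18.96 against 20.8, 25.9 and 31.6 CPM, with overlap. Snap25, a synaptic vesicle fusion protein, stood at 76.5, 204 and 169 against 66.6, 112 and 119 CPM, high in positive replicates 2 and 3 and not in replicate 1. The median of pan-neuronal genes per library followed the same split, at -0.55, 0.68 and 0.29 in positive replicates 1, 2 and 3 relative to the 6-library mean.

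Among 41 voltage-gated channel genes 1 rose, and among 54 transmitter receptors and transporters 2 rose, with 0 falls in either list. Of all genes tested, 0.541% were called higher. Scn9a, the sodium channel Nav1.7, stood at 6.68, 12.7 and 16.5 against 1.18, 2.25 and 1.11 CPM, with a log2 fold change of 2.97 ± 0.48 (SE). Gabbr2, a subunit of the GABA-B receptor, stood at 97.8, 90.6 and 86.3 against 46.7, 47.6 and 49.2 CPM, with a log2 fold change of 0.94 ± 0.17 (SE). Its libraries lay close together within each group. Adra2a, the alpha-2A adrenergic receptor, stood at 19.8, 18.95 and 21.2 against 4.98, 3.795 and 8.73 CPM, with a log2 fold change of 1.78 ± 0.35 (SE). The medians of the channel and receptor lists were 0.40 and 0.31 here (0.21 to 0.61 and 0.15 to 0.54 with 1 library left out), and -0.54 and -0.32 in the EGFP sort.

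Oligodendrocyte genes were not called in the mCherry sort, 0 of 25 by edgeR with 8 at an unadjusted p under 0.05 and a median of -0.33 (-0.46 to -0.06 with 1 library left out). Mbp, a myelin protein, stood at 1428, 2138 and 1394 against 1266, 1063 and 1439 CPM, with overlap, and Sox10, the lineage factor, at 111, 165 and 131 against 212, 140.1 and 285 CPM. In the EGFP sort the median of the list was -1.83, and the difference between sorts was called for 14 of the 25 genes, against 1.44% of all genes. Mbp differed by 2.12 and Sox10 by 1.60.

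Markers of cells from outside the neural lineage varied widely between libraries of a group. The summed level of 23 pituitary genes was 9.18, 247 and 1272 CPM in positive replicates 1, 2 and 3 and 4.65, 39.6 and 92.1 CPM in the negative replicates. Tshb, the beta chain of thyroid-stimulating hormone, stood at 0.127, 70.7 and 639.7 against 0.131, 0.411 and 14.1 CPM, and Pomc, which pituitary cells and arcuate neurons both make, at 4.06, 2099 and 4042 against 3.67, 199 and 88.9 CPM. Both were thus high in positive replicates 2 and 3, while positive replicate 1 was near negative replicate 1. The negative libraries also lay wide apart, and neither gene was called (edgeR adjusted p 0.187 and 0.218). The 15 pituitary genes tested had a median log2 fold change of 2.57, and 4.27 without negative replicate 2. Trhr, the receptor of thyrotropin-releasing hormone, was the 1 of them called, higher. It held 46, 95 and 279 reads in positive and 0, 0 and 2 in negative replicates 1, 2 and 3. The 420 reads in positive and 2 in negative libraries gave a ratio of read rates of 199.8 (95% exact binomial interval 55.0 to 1655). Unlike Tshb and Pomc, Trhr lay above all negative libraries in positive replicate 1 too. Prl, the prolactin gene, was at 0 in positive replicate 1 and negative replicate 1 and at most 3.89 CPM elsewhere, and Pou1f1, a pituitary factor, was at 0 in the same libraries and at most 11.6 CPM.

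Epithelial genes rose in 2 of 18 cases, where 0.541% of all genes were called higher. All 18 log2 fold changes were positive, with a median of 1.91, or 0.81 without positive replicate 3. Spint1, an inhibitor of membrane serine proteases, stood at 5.41, 10.2 and 16.4 against 0.393, 1.36 and 0.9700 CPM. Spint1 thus had a log2 fold change of 3.55 ± 0.59 (SE) and an edgeR adjusted p of 0.0349. Mal2, a protein of apical transport, stood at 9.77, 23.2 and 11.4 against 1.67, 3.42 and 2.49 CPM, with a log2 fold change of 2.55 ± 0.45 (SE). For both, all positive libraries lay above all negative ones. The adhesion gene Epcam stood at 3.21, 22.95 and 65.4 against 1.93, 6.48 and 6.93 CPM and was not called (log2 fold change 2.58, edgeR adjusted p 0.159), and Cdh1 was at 0 in 4 of the 6 libraries. The summed level of the 29 listed genes was 47.4, 141 and 247 CPM in positive and 25.5, 45.4 and 45.3 CPM in negative replicates, which ordered the positive libraries as the pituitary genes did. Spint1 and Mal2 were called lower in EGFP-positive cells, and the differences between the sorts were called, at 4.52 for Mal2. For Spint1 the EGFP-positive libraries held 1 read in all against 172 in the EGFP-negative ones, a ratio of 0.00519 (95% exact binomial interval 0.000131 to 0.0293), so the size of its difference is not well determined.

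Microglia and macrophage genes were high in positive replicate 1. The summed level of 24 genes was 2308, 295 and 256 CPM in positive and 127, 202 and 610 CPM in negative replicates. Csf1r, the growth factor receptor of microglia, stood at 148, 8.15 and 6.995 against 3.04, 4.14 and 4.39 CPM, and Cx3cr1, their fractalkine receptor, at 78.8, 3.56 and 14.4 against 2.16, 3.54 and 3.603 CPM. Of 22 genes tested edgeR called 0, with 9 at an unadjusted p under 0.05, and the list median of 1.42 was -0.03 without positive replicate 1. Interferon and antigen presentation genes were highest in the same library, with B2m, a chain of MHC class I, at 676, 206 and 128 against 210.4, 177 and 127 CPM and 0 of 30 called by edgeR (3 at an unadjusted p under 0.05). The part of these cells in the differences between the groups was not tested. Without positive replicate 1, the library with most microglial transcripts, 56 cell division genes were called lower, 48 of them among the 57. With another library left out instead the number was 0, 3 or 10, and none of these fits tests the part of microglia.

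**Figure D4:**
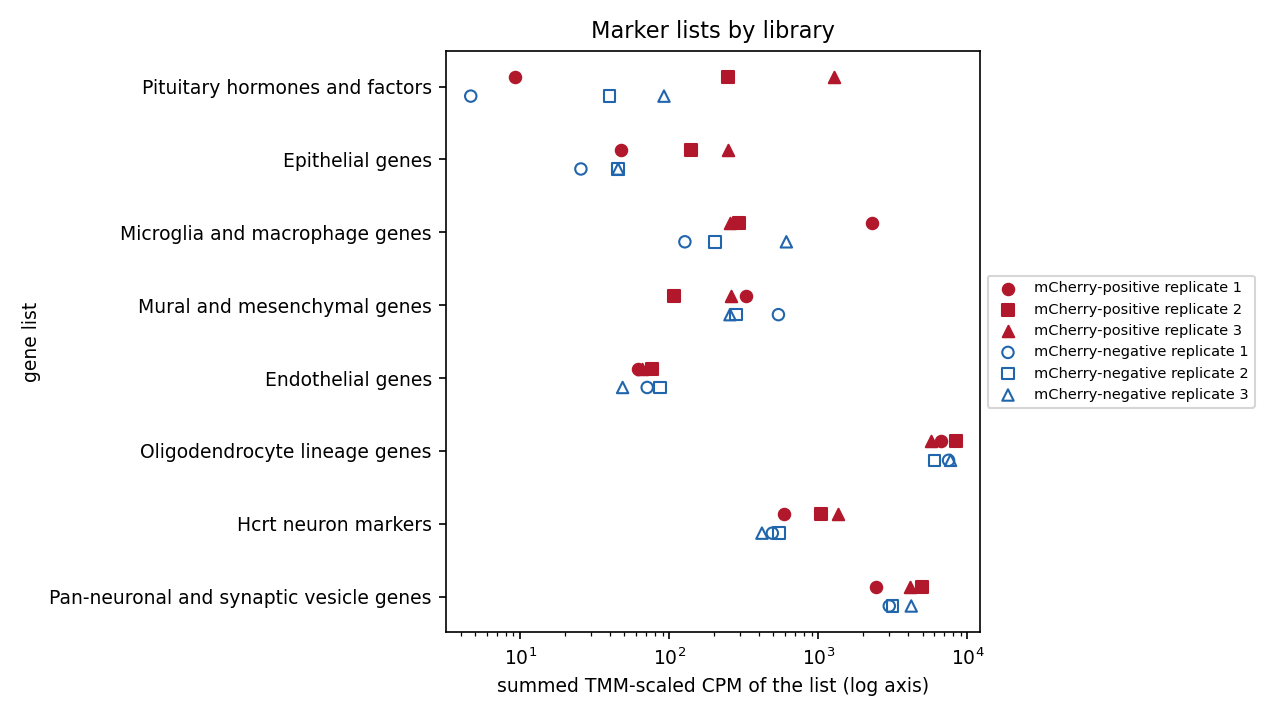
Summed TMM-scaled CPM (log axis) of 8 marker lists in each mCherry library; filled red symbols are mCherry-positive, open blue symbols mCherry-negative, and shapes give the replicate. Pituitary sums run from 9.18 to 1272 CPM among positive libraries, and the microglial sum is highest, at 2308 CPM, in positive replicate 1.

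Endothelial and blood markers were low. The endothelial genes Cldn5 and Cdh5 stood at 0 to 0.0423 and 0 to 0.507 CPM, and the sum of 18 endothelial genes was 61.4 to 76.8 CPM in positive and 48.6 to 86.8 CPM in negative libraries. The edgeR test called 0 of 9 endothelial and 0 of 17 mural and mesenchymal genes, and 2 and 4 of them passed an unadjusted p of 0.05. The summed level of 20 mural and mesenchymal genes was 327, 108 and 257 CPM in positive and 540, 280 and 255 CPM in negative replicates. Col1a1, a fibrillar collagen, stood at 29.05, 0.283 and 24.6 against 63.5, 19.2 and 25.6 CPM, lowest in positive replicate 2. Fbln1, fibulin-1 of the matrix, stood at 41.02, 38.9 and 45.2 against 70.2, 67.2 and 74.8 CPM without overlap and was not called (log2 fold change -0.76, edgeR adjusted p 0.0672), and it differed from the EGFP sort by -1.07. The haemoglobin genes Hba-a1 and Hbb-bs were at 0 in all 6 libraries.

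Cell state lists held no calls by edgeR: 0 of 8 mitochondrially encoded genes, 0 of 24 p53 targets and 0 of 21 immediate early genes, where 5, 9 and 5 passed an unadjusted p of 0.05. The mitochondrial genes had a median of 0.64, beside the higher mitochondrial share of positive libraries given above. The respiratory chain subunit mt-Co1 stood at 5226, 5667 and 3939.8 against 3334, 3094 and 2782 CPM, with no overlap, and differed from the EGFP sort by 1.02. Nuclear copies of mitochondrial genes make these levels uncertain. Fos, an immediate early gene induced by activity and dissociation, stood at 1545, 1381 and 1552 against 1500.1, 1942 and 1439.9 CPM, with overlap, and Egr1 at 1404, 1474 and 1418 against 2077, 2589.6 and 1767 CPM, without overlap and not called (log2 fold change -0.58, edgeR adjusted p 0.144).

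**Figure D5:**
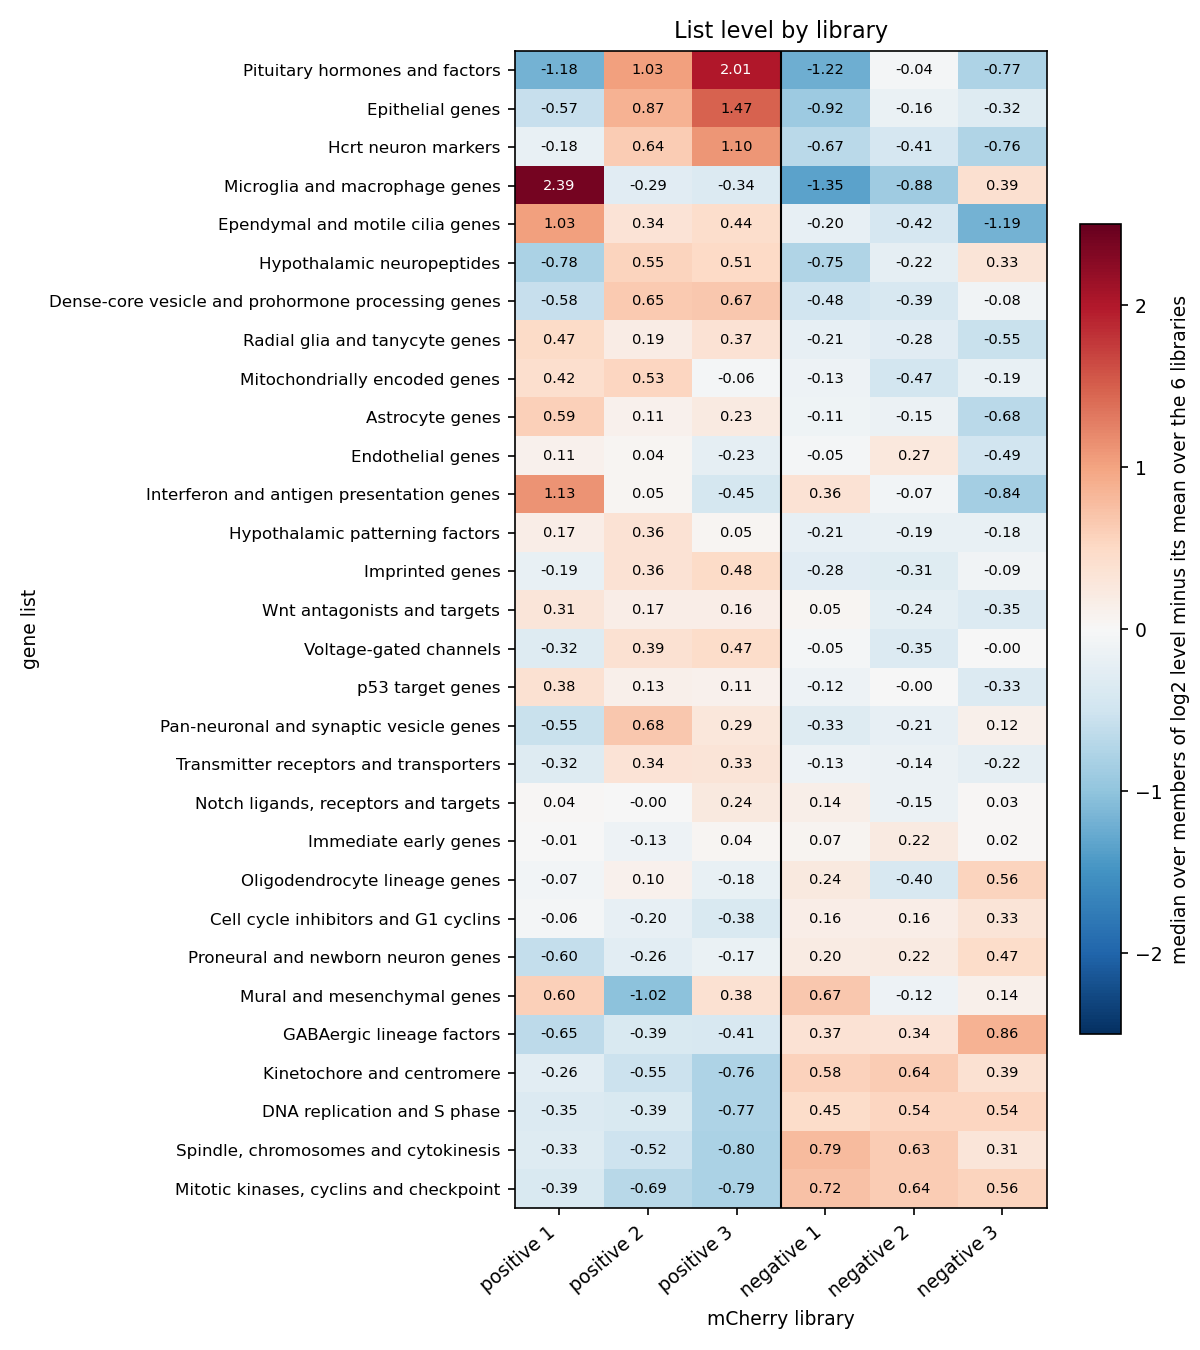
Median over the members of each of 30 lists of the log2 level minus its mean over the 6 mCherry libraries, printed in each cell, with red above and blue below the mean. Cell division lists are negative in all 3 positive and positive in all 3 negative libraries, while the pituitary, neuronal and microglial lists differ among the positive libraries.

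The calls were set beside those of the EGFP sort, where 8.99% of 16326 genes tested were called higher and 7.07% lower. Of the 94 rises 62 were also called higher in EGFP-positive cells and 2 lower, and 16 differed between the sorts by the interaction test. Of the 114 falls 12 were also called lower in EGFP-positive cells and 1 higher, and 60 differed between the sorts. The share of falls also called lower was thus near the background, and no test compared the 2 directions. The interaction test called 1.44% of all genes. Rises and falls were picked by their effect in the same mCherry libraries, which favours a called difference between the sorts. Of the 208 called genes 111 were on no list, 72 of them rises and 39 falls. Among them, and picked after their values were seen, were the chromatin genes Hmgb2 (-1.24), Ezh2 (-0.998), Asf1b (-1.62) and H2afx (-1.25) on the side of the falls. Hmgb2 is a DNA-bending protein of dividing cells, Ezh2 the methyltransferase of Polycomb complex PRC2, Asf1b a histone chaperone and H2afx the histone variant phosphorylated at DNA breaks. On the side of the rises, picked in the same way, were Slit2 (2.27), a secreted axon guidance ligand, Abca1 (1.73), a cholesterol exporter, Sdc4 (1.51), a heparan sulfate proteoglycan, and Cckbr (2.42), a cholecystokinin receptor.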

How the data were processed

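RNA-seq libraries of 6 sorted samples were analysed, with 6 of the EGFP sort for the test of the difference. The deposited files hold raw counts, reads per Ensembl gene that the authors made without normalization. Per the submitters' processing notes, cutadapt 1.8, STAR 2.5.2b, HTSeq 0.6.1 and build GRCm38 were used. For annotation release and strand setting, no source used here gives a value. The 5 HTSeq summary entries, 34.2% to 38.1% of counted reads, were left out. Of 48709 identifiers, 48349 matched GENCODE M21, the source of symbols and positions.

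Counts were fitted in edgeR 4.0.16 (R 4.3.3) with TMM factors, filterByExpr (minimum count 10, total 15), group as the only term, the quasi-likelihood test and Benjamini-Hochberg adjustment at 0.05. The difference between sorts was a contrast in 1 fit of 12 samples. The SE is the log2 fold change divided by the root of the F statistic. Hcrt was compared by exact tests. Chi-square per degree of freedom between mCherry replicates was 44.7 to 88.5, so none was a copy. The fit was tested on simulated data. Alternatives were DESeq2 1.42.0 (test and size factors), limma-voom (limma 3.58.1), other filters, a replicate block, a shared spread and leaving out each library.

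The comparison, the 31 lists (939 genes, 29 on more than 1) and the naming rule were chosen with earlier results of these data known, so lists are described by counts and medians only. The text names Hcrt, the 12 rises and 12 falls of smallest p among called genes averaging 5 CPM or more, with a gene symbol and no overlap, and up to 6 called members per list, or the 2 of highest level where none was called, with cell-type-defining markers. Some genes that this rule picks are not reported here. Levels per library relative to the mean used log2(CPM + 0.5).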

Additional observations from a re-analysis of the deposited data

Results flagged for a closer look

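The values here are differences between the sorts, the mCherry log2 effect (positive over negative) minus the EGFP log2 effect. Each was singled out because the edgeR interaction test over all 12 libraries called the named gene at an adjusted p under 0.05, so its effect differed between the mCherry and the EGFP sort. Over all 18063 genes the test called 261.

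Cell division genes had lower effects in the mCherry sort. Among replication genes these were Tk1 (-1.40), Tyms (-1.27), Mcm2 (-1.22), Mcm5 (-1.13) and Mcm7 (-0.95). Among kinetochore genes they were Ndc80 (-1.71), Spc24 (-1.58), Cenpe (-1.23) and Cenpa (-1.09). Among mitotic kinases and checkpoint genes they were Cdca8 (-1.56), Plk1 (-1.50), Cdk1 (-1.39), Ube2c (-1.33) and Cdc20 (-1.17), and among spindle genes Kif22 (-1.42), Nusap1 (-1.40), Cdca3 (-1.18), Tacc3 (-1.07) and Racgap1 (-0.96). Cdca7 (-1.62) and Cdkn2c (-1.15) had lower effects as well. Of the factors of GABAergic and newborn neurons, Dlx2 (-1.65), Mfng (-1.39), Sox11 (-0.95) and Meis2 (-0.92) differed. The effects of Aldh1l1, a gene of astrocytes, and Fbln1, of the matrix, were lower by values of -1.21 and -1.07.

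Higher effects in the mCherry sort were called for the microglial genes Cx3cr1 (8.68), Csf1r (7.61) and Tmem119 (5.52), which were high in mCherry-positive replicate 1. These genes held 6, 28 and 29 reads in all EGFP-positive libraries together, so the sizes are not well determined. The microglial marker P2ry12 was not called (-0.02) and had a log2 fold change of 1.41 in the EGFP sort. Of 22 microglial genes tested the difference was called for 4. The epithelial genes Spint1 (10.53), Epcam (4.99) and Mal2 (4.52) followed, the first resting on 1 read in the EGFP-positive libraries, with all but Epcam called within the mCherry sort as well. The imprinted genes Zim1 (3.84) and Rasgrf1 (2.70) and the oligodendrocyte genes Mbp (2.12) and Sox10 (1.60) also differed, the last 2 with no call in the mCherry sort. The remaining higher effects were those of Reln (2.48), Frzb (1.79), Kndc1 (1.62), Padi2 (1.57), Prune2 (1.42), Sparc (1.17), mt-Cytb (1.05) and mt-Co1 (1.02). The part of virus, RNA input and cell makeup in these differences cannot be told apart.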

How the results depend on the processing

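All 208 called genes kept their sign under every alternative in which they were tested, but they were chosen on these same libraries. Against 94 higher and 114 lower genes, the counts were 485 and 293 with no filter, 245 and 213 with a stricter filter (5 CPM in 3 samples), 885 and 591 with DESeq2, and 883 and 829 with the spread shared over all 12 samples. Size factors of DESeq2 gave 103 and 99, and limma-voom 100 and 146, so the share of higher calls was 45.2% here, 62.3% with no filter, 60.0% with DESeq2, 51.0% with size factors, and 40.7% with limma-voom. With 1 library left out, 0 to 125 genes were higher and 0 to 87 lower. For the difference between the sorts, 160 higher and 101 lower genes became 483 and 192 with no filter, 254 and 87 with the stricter filter, 584 and 310 with DESeq2, and 99 and 96 with limma-voom, and 48 to 405 and 24 to 186 with 1 library left out.

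Of the 66 called genes named by the rule, 65 stayed called with DESeq2 size factors, which lost Stmn1, and 63 with limma-voom, which lost Cfap65, Rasgrf1 and Trhr. The Hcrt ratio reversed to 0.960 without mCherry-positive replicate 3 and ranged up to 2.48 with 1 library left out. Medians of lists moved beyond their spread in 30 of 402 cases, and the stricter filter left no red blood cell gene to give a value.

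Whether same-numbered positive and negative samples share a culture is not in the labels, and the correlations below do not settle it. Deviations of same-numbered positive and negative libraries correlated at 0.126, -0.02 and 0.033, and not every sample correlated best with its own number. With the replicate block edgeR called 188 higher and 155 lower genes, 54.8% of them higher. Plagl1 then had an adjusted p of 0.0501.

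The depth limited low genes such as Hcrt. With 2 samples left in a group, the tests assume that they vary like the other group. The p-values of the difference rest on 1 spread per gene for both sorts.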
